A study of Mus musculus with 6 samples.

Results

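Cholesterol synthesis, uptake and efflux were described through 35 genes in RNA-Seq libraries of 3T3-L1 adipocytes that had received the virus AdLacZ or Ad*Lmo3*. The 35 genes were listed by their place in the pathway, with earlier results of these data known, and all of them were found among the 24421 gene symbols of the count tables. They comprised 4 genes of SREBP2 control, 8 enzymes of the mevalonate part, 12 squalene and sterol enzymes, 6 genes of sterol uptake, transfer and storage, and 5 genes of LXR and efflux. 3T3-L1 is a mouse preadipocyte line that turns into fat cells in culture, and the labels give its strain as C57BL/6. All cells had been differentiated with insulin (870 nM), TZD (5 µM, a PPARγ agonist), dexamethasone (1 µM) and IBMX (500 µM), the last 2 being withdrawn on day 3. They were infected on day 7 at 100 pfu/cell with adenovirus carrying *LacZ* (AdLacZ, control) or a codon-optimized murine *Lmo3* (Ad*Lmo3*), and RNA was taken 3 days later. Each group held 3 libraries, which the series describes as separate infections. LMO3 is a LIM domain adaptor protein, and the comparison asked what its overexpression does to transcripts of mature adipocytes. Every cell of both groups had therefore met a virus and PPARγ agonist, and no uninfected libraries were analysed here.

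Cells make cholesterol from acetyl-CoA through mevalonate, the isoprenoids, squalene and lanosterol. When membrane sterol is low, SCAP carries SREBP2 from the endoplasmic reticulum to the Golgi, where it is cut to an active transcription factor for synthesis and uptake genes, and INSIG proteins hold it back when sterol is high. Oxysterols activate the LXR receptors, which turn on efflux pumps. Adipocytes keep much of the free cholesterol of the body on the surface of their lipid droplets, and exchange it with high-density lipoprotein.

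The libraries held 28035639 to 38332335 counts on genes, and 12766 genes, all 35 cholesterol genes among them, had enough counts to be tested. Levels are given as CPM (counts scaled to a common library size) after TMM normalization, a scaling by library composition, and differences as log2 fold changes of Ad*Lmo3* over AdLacZ from edgeR's quasi-likelihood test. A gene was called differentially expressed, and is said to be induced or repressed, at an adjusted p (Benjamini-Hochberg over all tested genes) under 0.05. No read was counted on *Lmo3* (0 counts in each of 6 libraries), and the annotated gene could not check the labels of a codon-optimized transgene. Adipocyte markers were present in both groups, with a summed level of 17508 to 18066 CPM with AdLacZ against 25708 to 30674 CPM with Ad*Lmo3*. Of 16 such markers, 12 were induced (75%, against 2.71% of all tested genes) and none repressed (against 1.57%). The number of induced adipocyte markers was 3 without AdLacZ replicate 3, 7 without Ad*Lmo3* replicate 2 and 8 without AdLacZ replicate 2. Preadipocyte and fibroblast markers summed to 16867 to 21175 CPM with AdLacZ against 16566 to 24515 CPM with Ad*Lmo3*, most of it from *Col3a1* and *Col1a1*. Of these markers 0 of 12 were called, against 4.28% of all tested genes. Macrophage markers summed to 4.61 to 5.86 CPM with AdLacZ and 3.18 to 5.21 CPM with Ad*Lmo3*. *Ptprc* and *Adgre1* had no more than 2 counts in any library of either group. In such bulk libraries, more cells of a type and more RNA per cell cannot be told apart.

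Of the 35 cholesterol genes, 5 were induced by Ad*Lmo3* and 0 were repressed. The induced genes were *Mvd* and *Acat2* of the mevalonate part, the sterol reductase gene *Tm7sf2*, the lipoprotein receptor gene *Scarb1*, and *Nr1h3*, which encodes LXRα. Their log2 fold changes lay between 0.39 and 0.56, or 1.31 to 1.47-fold. The share induced was 14.3%, against 2.71% of all tested genes, for a list that was not drawn up independently of these data, and 1.57% of all tested genes were repressed (4.28% called in either direction). In 14 of the 35 genes (40%) every Ad*Lmo3* library lay above every AdLacZ library, against 13.3% of all tested genes, whereas the opposite order, held by 13.2% of all tested genes, occurred in 0 of them. An unadjusted p under 0.05 with a higher level in Ad*Lmo3* was reached by 15 of the 35 genes and by 11.1% of all tested genes, and 0 of the 35 reached it with a lower level. The median log2 fold change of the 35 genes was 0.11, beside 0.0014 for all tested genes. With library totals only these medians were 0.036 and -0.07, and without Ad*Lmo3* replicate 2 the median of the 35 genes was 0.17. Positive fold changes were found for 25 genes, 5 of which, all near 0, turned negative when libraries were scaled by their totals only.

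How many cholesterol genes were called depended on the libraries. The count was 0 without AdLacZ replicate 3, 1 (*Mvd*) without Ad*Lmo3* replicate 2, 2 (*Mvd* and *Tm7sf2*) without Ad*Lmo3* replicate 3, 3 without AdLacZ replicate 1 or 2, and 8 without Ad*Lmo3* replicate 1, with 77 to 501 genes called over the whole table in these fits. The summed adipocyte markers were higher in every Ad*Lmo3* library, as were the summed mevalonate enzymes, squalene and sterol enzymes, SREBP2 control genes and uptake genes. Among the 4 SREBP2 control genes only *Insig1* had groups that did not overlap. Its means were 455 CPM with AdLacZ and 602 CPM with Ad*Lmo3*, within summed means of 824 and 972 CPM. The part of the adipocyte markers in these results was not tested. Scaling by library totals moved the calls over all genes from 346 induced and 201 repressed to 266 induced and 501 repressed, and left 4 of the 5 cholesterol genes induced.

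**Figure D1:**
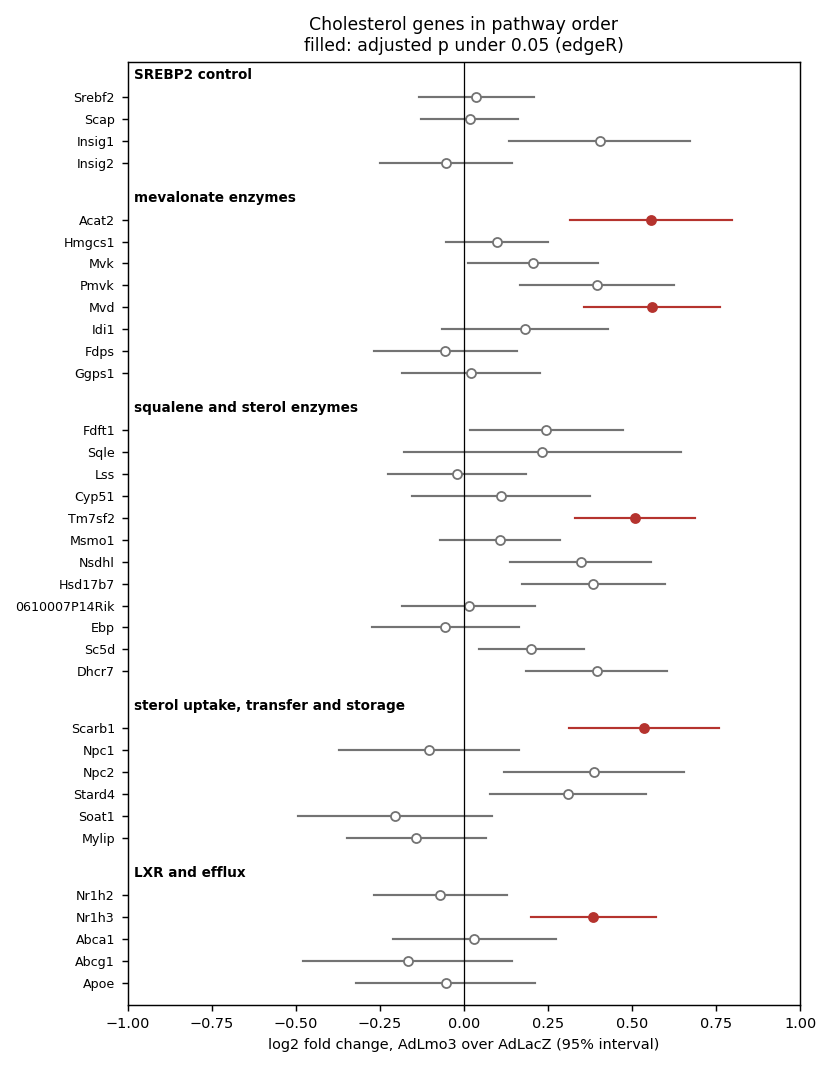
Log2 fold change of Ad*Lmo3* over AdLacZ (x axis) with its 95% interval for the 35 cholesterol genes, in pathway order from top to bottom; filled red points have an adjusted p under 0.05 in edgeR. The 5 filled points lie between 0.39 and 0.56 and stand in 4 of the 5 role groups, while *Srebf2*, *Scap*, *Ggps1*, *0610007P14Rik* and *Abca1* lie close to 0 and turn negative when libraries are scaled by totals only.

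The SREBP2 control genes were not called. *Srebf2*, which encodes the transcription factor itself (GRCm38 chromosome 15, 82147181 to 82205379), had 159.7, 179 and 167 CPM with AdLacZ (replicates 1 to 3) against 166, 168 and 185 CPM with Ad*Lmo3* (replicates 1 to 3). The ranges overlapped, and the log2 fold change was 0.04 (95% interval -0.13 to 0.21, adjusted p = 0.831, and -0.04 with library totals only). *Scap*, which encodes the escort protein, had 86.1, 89.9 and 83.8 CPM with AdLacZ against 92.1, 84.6 and 86.3 CPM with Ad*Lmo3*. This was the steadiest of the 4 genes, with a log2 fold change of 0.02 (-0.13 to 0.16, adjusted p = 0.915, and -0.06 with library totals only). An overlapping transcript on the opposite strand, *5830462I19Rik*, covers 13.2% of its exon bases.

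*Insig1* encodes an anchor that keeps SCAP in the endoplasmic reticulum and is itself a known SREBP target. It had 504, 423 and 439 CPM with AdLacZ against 505, 652 and 650.0 CPM with Ad*Lmo3*. Replicate 1 of the 2 groups all but met, at 504 and 505 CPM, while Ad*Lmo3* replicates 2 and 3 stood well above. The log2 fold change of 0.40 (0.13 to 0.67) had an adjusted p of 0.1005, which became 0.0297 (log2 fold change 0.52) without Ad*Lmo3* replicate 1. Its relative *Insig2*, which has the same anchoring role, had 102, 124 and 116 CPM with AdLacZ against 108, 116 and 105 CPM with Ad*Lmo3*, overlapping ranges with a log2 fold change of -0.05 (-0.25 to 0.14, adjusted p = 0.781).

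**Figure D2:**
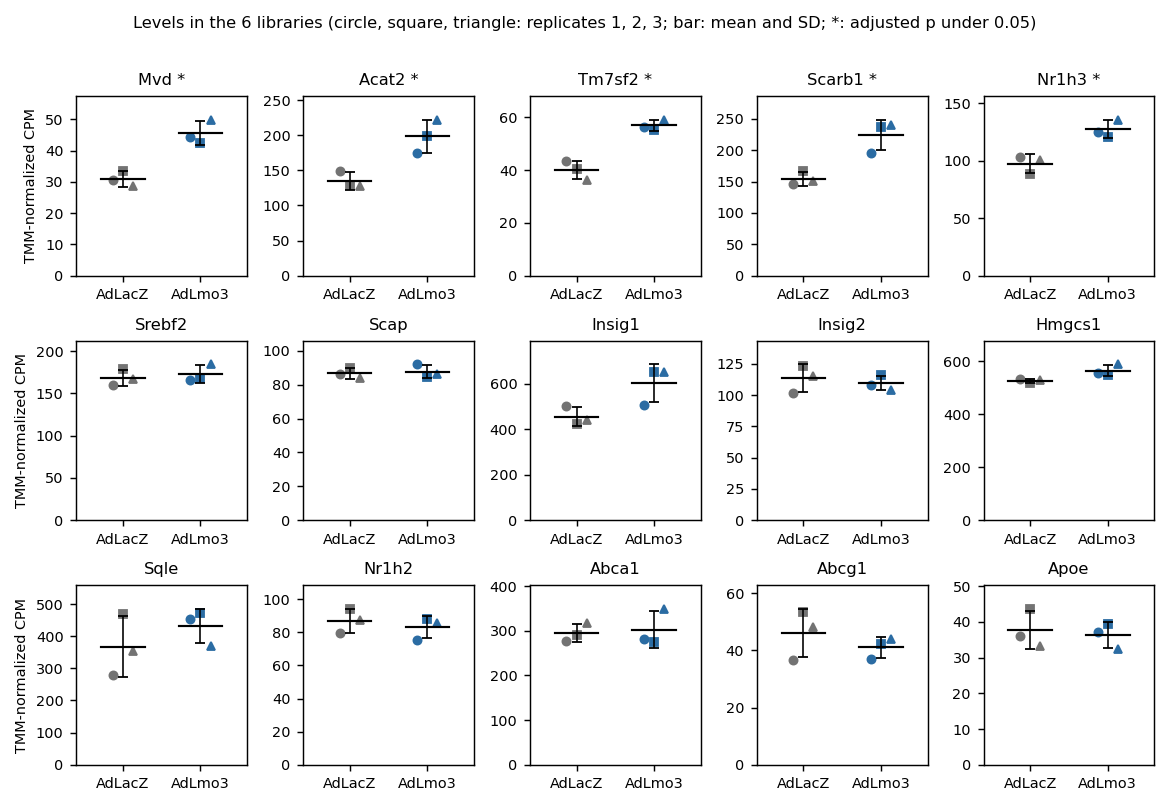
TMM-normalized CPM (y axes, from 0) of 15 cholesterol genes in the 3 AdLacZ (grey) and 3 Ad*Lmo3* (blue) libraries; circles, squares and triangles are replicates 1, 2 and 3, bars are the mean and SD, and an asterisk marks an adjusted p under 0.05. In the 5 genes of the top row, and in *Insig1* and *Hmgcs1*, every Ad*Lmo3* library lies above every AdLacZ library, whereas in the other 8 genes the groups overlap.

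Among the mevalonate enzymes, 2 of 8 genes were induced. *Mvd* encodes mevalonate diphosphate decarboxylase, the enzyme that makes isopentenyl diphosphate, and lies on chromosome 8 from 122433601 to 122443422. It had 30.5, 33.6 and 28.7 CPM with AdLacZ against 44.5, 42.4 and 49.9 CPM with Ad*Lmo3*. The groups were well apart, the highest AdLacZ library being below the lowest Ad*Lmo3* library by more than the SD of either group (2.47 and 3.91 CPM). The log2 fold change was 0.56 (standard error 0.0881, 95% interval 0.36 to 0.76, adjusted p = 0.0145), and the call was lost only without AdLacZ replicate 3 (adjusted p = 0.0789).

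*Acat2*, the cytosolic thiolase that joins acetyl-CoA units at the start of the pathway (chromosome 17, 12942890 to 12960747), had 149.5, 129 and 127 CPM with AdLacZ against 175, 199 and 222 CPM with Ad*Lmo3*. Every Ad*Lmo3* library was higher, and the log2 fold change was 0.56 (standard error 0.105, 0.32 to 0.80, adjusted p = 0.0266). The call was lost without AdLacZ replicate 2 (adjusted p = 0.0815), AdLacZ replicate 3 (0.133), Ad*Lmo3* replicate 2 (0.103) or Ad*Lmo3* replicate 3 (0.0539). Of the stretches of 75 bp in its transcripts, 33.9% also occur in the neighbouring gene *Acat3*, so reads between these genes are uncertain, and *Acat3* itself had 0 to 11 counts in a library.

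The other 6 mevalonate enzymes were not called. *Hmgcs1* encodes HMG-CoA synthase, the step after *Acat2* (chromosome 13, 119690379 to 119708260), and had 533, 518 and 529 CPM with AdLacZ against 557, 547 and 589 CPM with Ad*Lmo3*. Although the groups did not overlap, the log2 fold change was 0.10 (-0.05 to 0.25, adjusted p = 0.449). *Gm48342* on the opposite strand covers 12.1% of the *Hmgcs1* exon bases. *Pmvk*, the kinase ahead of *Mvd*, also had non-overlapping groups, with a log2 fold change of 0.40 and an adjusted p of 0.0691. *Mvk*, which phosphorylates mevalonate, overlapped between the groups, with a log2 fold change of 0.20 and an adjusted p of 0.216. The enzymes that follow *Mvd* overlapped as well. *Idi1*, the isopentenyl diphosphate isomerase, had a log2 fold change of 0.18 (adjusted p = 0.391), and *Fdps*, which makes farnesyl diphosphate, one of -0.06 (adjusted p = 0.790). *Ggps1*, which leads away from sterols to geranylgeranyl diphosphate, had a log2 fold change of 0.02 (adjusted p = 0.925, and -0.05 with library totals only). In *Idi1* and *Fdps*, 23.6% and 23.5% of the 75 bp stretches occur in other genes, so their values carry that uncertainty.

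The start sites of *Mvd*, *Acat2* and *Hmgcs1* were searched for the letters usually looked for in sterol-regulated promoters. They are printed because the first 2 genes were induced while the third, the only one to carry the sterol element letters, was not called. The sequences are from RefSeq (GRCm38.p6), 5′ to 3′ on the strand of the gene, from 250 bases before the start site up to the first annotated exon. Capitals mark CCAAT (the NF-Y box), GGGCGG (the SP1 box) and TCACNCCAC (sterol regulatory element letters), searched on both strands.
Mvd chr8:122443423-122443672 (minus strand): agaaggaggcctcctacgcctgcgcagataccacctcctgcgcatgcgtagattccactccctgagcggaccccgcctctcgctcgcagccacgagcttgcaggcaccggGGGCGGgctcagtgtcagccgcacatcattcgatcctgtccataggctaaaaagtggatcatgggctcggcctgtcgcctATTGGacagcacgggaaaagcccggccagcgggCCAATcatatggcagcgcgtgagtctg
Acat2 chr17:12960748-12960975 (minus strand): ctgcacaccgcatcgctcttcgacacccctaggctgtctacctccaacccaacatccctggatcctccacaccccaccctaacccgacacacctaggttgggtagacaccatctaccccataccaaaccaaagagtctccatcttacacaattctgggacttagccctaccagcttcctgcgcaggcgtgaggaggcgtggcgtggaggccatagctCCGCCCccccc
Hmgcs1 chr13:119690101-119690350 (plus strand): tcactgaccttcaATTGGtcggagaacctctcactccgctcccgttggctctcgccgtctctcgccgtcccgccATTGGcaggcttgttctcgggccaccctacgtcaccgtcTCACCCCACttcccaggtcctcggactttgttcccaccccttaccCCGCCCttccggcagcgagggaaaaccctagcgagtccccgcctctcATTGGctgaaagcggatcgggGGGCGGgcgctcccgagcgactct
The *Mvd* stretch held 2 NF-Y boxes and 1 SP1 box, and the *Acat2* stretch 1 SP1 box. The *Hmgcs1* stretch held 3 NF-Y boxes, 2 SP1 boxes and the sterol element letters, whose first base lies 137 bases before the start site. Windows of 300 bases around the start were found for 28 of the 35 genes, and not for *Fdps*, *Fdft1*, *Sqle*, *Scarb1*, *Npc1*, *Stard4* and *Abcg1*. Over these windows the NF-Y box was present in 75% of the cholesterol genes and 41.1% of all 27025 genes with a window, the SP1 box in 82.1% and 38.2%, and the sterol element letters in 3.57% (*Hmgcs1*) and 1.44%. Of the 4 induced genes with a window, 2 (*Mvd* and *Tm7sf2*) held an NF-Y box, 3 an SP1 box and 0 the sterol element letters. An annotated exon reaches into the upstream part of the *Tm7sf2* window, which is not printed. Both windows of *Nr1h3* held none of the 3 motifs. These matches describe letters only.

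Among the 12 squalene and sterol enzymes, 1 gene was induced. *Tm7sf2* encodes a sterol reductase that acts on the product of *Cyp51* (chromosome 19, 6062821 to 6068373), and had 43.3, 40.4 and 36.2 CPM with AdLacZ against 56.5, 55.2 and 59.2 CPM with Ad*Lmo3*. The 3 Ad*Lmo3* libraries lay close together (SD 2.02 CPM) and clear of the AdLacZ range, and the log2 fold change was 0.51 (standard error 0.0775, 0.33 to 0.69, adjusted p = 0.0130). Without AdLacZ replicate 3 the adjusted p was 0.0601, and without Ad*Lmo3* replicate 2 it was 0.0503. Exons of *Vps51* on the same strand cover 12.1% of its exon bases, and *Vps51* had 44.0 ± 0.803 CPM with AdLacZ against 43.3 ± 1.53 CPM with Ad*Lmo3* (SD, n = 3 each), with a log2 fold change of -0.02.

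4 further enzymes of the sterol part had groups that did not overlap without being called. *Dhcr7*, the last reductase on the way to cholesterol, had a log2 fold change of 0.40 (0.19 to 0.61, adjusted p = 0.0541). *Hsd17b7* and *Nsdhl* belong with *Msmo1* and *0610007P14Rik* to the complex that removes methyl groups at carbon C4 of the sterol. *Hsd17b7*, its ketoreductase, had a log2 fold change of 0.38 (0.17 to 0.60, adjusted p = 0.0600), and *Nsdhl*, its decarboxylating dehydrogenase, one of 0.35 (0.14 to 0.56, adjusted p = 0.0774). *Sc5d*, the desaturase ahead of *Dhcr7*, had a log2 fold change of 0.20 (0.04 to 0.36, adjusted p = 0.147). Without Ad*Lmo3* replicate 1, *Dhcr7* (adjusted p = 0.0188) and *Nsdhl* (0.0286) passed the threshold.

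The members of the C4 complex did not all share these values. *Msmo1*, its oxidase, overlapped between the groups with a log2 fold change of 0.11 (adjusted p = 0.492), and *0610007P14Rik*, named *Erg28* in GENCODE and known as the scaffold of the complex, had 0.01 (adjusted p = 0.951, and -0.06 with library totals only). *Ebp*, the sterol isomerase that follows, had a log2 fold change of -0.05 (adjusted p = 0.799).

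The early sterol steps also overlapped between the groups. *Fdft1*, squalene synthase, had a log2 fold change of 0.24 (0.02 to 0.47, adjusted p = 0.209), with 18.3% of its exon bases under *Ctsb* on the opposite strand. *Sqle*, the squalene epoxidase (chromosome 15, 59315077 to 59331192), had 279.8, 469 and 353 CPM with AdLacZ against 454, 471 and 369.7 CPM with Ad*Lmo3*. It had the widest spread of all 35 genes in AdLacZ libraries, an SD of 26.0% of the mean, and the log2 fold change of 0.23 had an interval from -0.18 to 0.64 (adjusted p = 0.526). Leaving out AdLacZ replicate 1 brought it to 0.07 and leaving out AdLacZ replicate 2 to 0.45, neither called. *Lss*, which closes the ring to lanosterol, had -0.02 (adjusted p = 0.932), and *Cyp51*, the lanosterol demethylase, 0.11 (adjusted p = 0.648), both on the log2 scale.

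Over the whole synthetic route, 3 of 20 enzyme genes were induced (15%, against 2.71% of all tested genes). A positive fold change was found for 17 of them, and for 6437 of all 12766 tested genes. In 9 the groups did not overlap, all 9 higher in Ad*Lmo3* (45%, against 13.3% of all tested genes). The median log2 fold change was 0.20 for these 20 genes. The 15 remaining genes had 2 induced (13.3%, a share close to that of the enzymes), 8 positive fold changes, 5 with groups that did not overlap (33.3%) and a median of 0.02. The summed squalene and sterol enzymes were 1571 ± 78.3 CPM with AdLacZ against 1803 ± 64.2 CPM with Ad*Lmo3*, and the summed mevalonate enzymes 1055 ± 42.2 and 1190.2 ± 77.7 CPM (SD, n = 3 each).

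**Figure D3:**
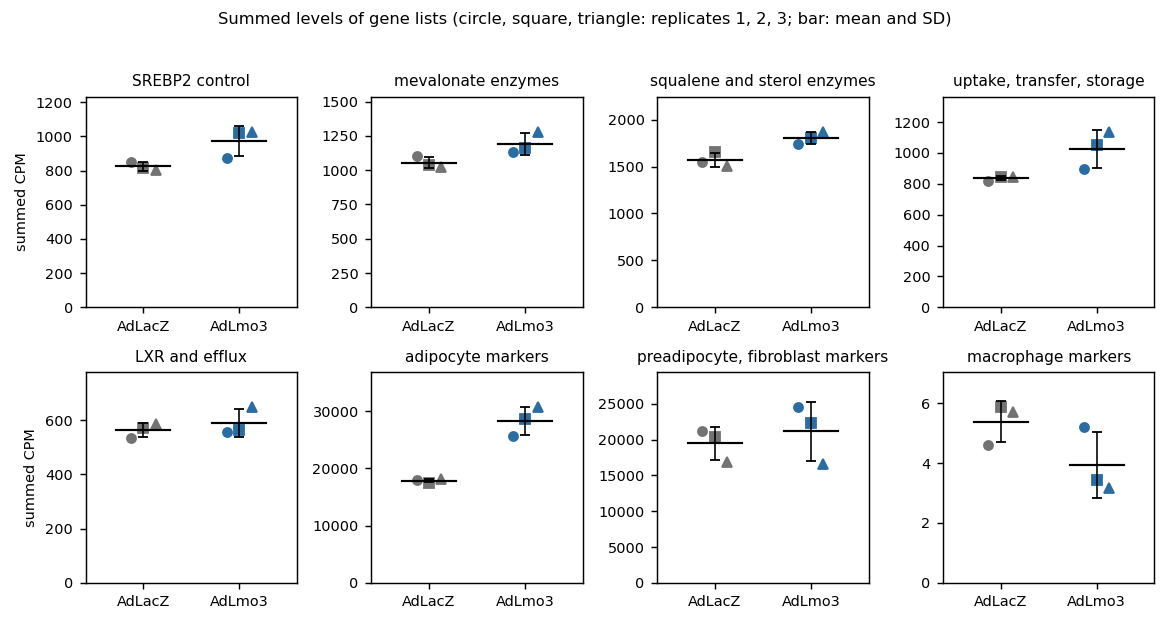
Summed TMM-normalized CPM (y axes, from 0) of the 5 role groups of cholesterol genes and of 3 cell type marker lists, by library; circles, squares and triangles are replicates 1, 2 and 3, and bars are the mean and SD. All sums of cholesterol genes except LXR and efflux are apart between the groups, as is the sum of the adipocyte markers (17508 to 18066 against 25708 to 30674 CPM), while those of the preadipocyte and macrophage markers overlap. Among the SREBP2 control genes only *Insig1* is itself apart between the groups.

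Of the genes of uptake, transfer and storage, 1 of 6 was induced. *Scarb1* encodes SR-BI, the receptor through which cells exchange cholesterol with high-density lipoprotein (chromosome 5, 125277087 to 125341094). It had 146, 167 and 151 CPM with AdLacZ against 196, 237 and 239.6 CPM with Ad*Lmo3*. Ad*Lmo3* replicate 1 was the lowest of its group but still above every AdLacZ library, and the log2 fold change was 0.54 (standard error 0.0968, 0.31 to 0.76, adjusted p = 0.0235). The call was lost without AdLacZ replicate 1 (adjusted p = 0.0741), AdLacZ replicate 3 (0.117), Ad*Lmo3* replicate 2 (0.104) or Ad*Lmo3* replicate 3 (0.0552).

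*Npc2* and *Npc1* hand over cholesterol inside late endosomes, the first as a soluble carrier and the second as the membrane protein that takes it up. *Npc2* had groups that did not overlap, with a log2 fold change of 0.39 (0.12 to 0.66, adjusted p = 0.111, and 0.026 without Ad*Lmo3* replicate 1), while *Npc1* overlapped, with -0.10 (-0.37 to 0.16, adjusted p = 0.672). *Stard4*, a soluble sterol carrier, was also apart between the groups, with a log2 fold change of 0.31 (0.08 to 0.54, adjusted p = 0.132). *Soat1*, which esterifies cholesterol for storage, had a log2 fold change of -0.20 (-0.49 to 0.08, adjusted p = 0.407). *Mylip*, an ubiquitin ligase for lipoprotein receptors and an LXR target, had -0.14 (-0.35 to 0.06, adjusted p = 0.426), and both overlapped between the groups.

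Of the LXR and efflux genes, 1 of 5 was induced. *Nr1h3* encodes LXRα, the LXR form that is enriched in fat, liver and macrophages (chromosome 2, 91184061 to 91202834), and had 104, 88.6 and 100.2 CPM with AdLacZ against 125, 121 and 136 CPM with Ad*Lmo3*. The groups were apart, and the log2 fold change was 0.39 (standard error 0.0811, 0.20 to 0.57, adjusted p = 0.0405). This was the call nearest to the threshold, and it was lost without any of the 6 libraries (adjusted p = 0.0589 to 0.134) and with library totals only (0.0639). *Nr1h2*, which encodes the widely expressed LXRβ, had 79.6, 94.1 and 87.4 CPM with AdLacZ against 75.3, 88.0 and 85.5 CPM with Ad*Lmo3*. Its groups overlapped, with a log2 fold change of -0.07 (-0.27 to 0.13, adjusted p = 0.709).

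The transcripts that LXR is known to turn on for efflux were not called. *Abca1*, the pump that loads cholesterol onto apolipoprotein A-I, had 278, 291 and 317 CPM with AdLacZ against 282, 274 and 349.6 CPM with Ad*Lmo3*, so that only Ad*Lmo3* replicate 3 stood above the AdLacZ range. The log2 fold change was 0.03 (-0.21 to 0.27, adjusted p = 0.910, and -0.04 with library totals only). *Abcg1*, which passes cholesterol to high-density lipoprotein, had 36.7, 53.3 and 48.1 CPM with AdLacZ against 36.8, 42.3 and 44.0 CPM with Ad*Lmo3*. All Ad*Lmo3* libraries fell within the AdLacZ range, with a log2 fold change of -0.17 (-0.48 to 0.14, adjusted p = 0.552). *Apoe*, an apolipoprotein secreted by adipocytes, had 36.1, 43.7 and 33.2 CPM with AdLacZ against 37.2, 39.4 and 32.3 CPM with Ad*Lmo3*, a log2 fold change of -0.05 (-0.32 to 0.21, adjusted p = 0.843). The summed LXR and efflux genes overlapped between the groups, at 534 to 586 CPM with AdLacZ against 557 to 647 CPM with Ad*Lmo3*.

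Levels were compared between genes as CPM per kb of GENCODE exon length. That length joins the exons of all annotated transcripts of a gene and can exceed that of the transcript expressed, so the order of genes depends on it. On this scale *Insig1* was the highest of the 35 genes in AdLacZ libraries, with 147 CPM per kb, followed by *Hmgcs1* (115), *Npc2* (79.8), *Sqle* (66.2) and *Acat2* (53.1). Mean ± SD ranges overlapped between *Npc2* and *Sqle* and between *Sqle* and *Acat2*, as did those of *Acat2*, *Msmo1* (52.0 CPM per kb) and *Fdps* (51.9 CPM per kb). At the low end were *Soat1* with 4.30, *Ggps1* with 5.12, *Idi1* with 6.16, *Stard4* with 6.27 and *Abcg1* with 6.31 CPM per kb. In that order *Soat1* and *Ggps1* overlapped within their SDs, as did *Idi1*, *Stard4* and *Abcg1*. Along the mevalonate part the level per kb followed no steady course, with 15.1 CPM per kb for *Mvk*, 33.7 for *Pmvk*, 16.6 for *Mvd*, 6.16 for *Idi1* and 51.9 for *Fdps*. *Nr1h3* had 38.8 CPM per kb and *Nr1h2* 25.9 CPM per kb, so that on this scale the transcript of LXRα was above that of LXRβ in control cells. The values in Ad*Lmo3* libraries were 50.6 and 24.7 CPM per kb. The 5 induced genes covered a wide range of AdLacZ levels, from 9.09 CPM per kb for *Tm7sf2* through 16.6 for *Mvd*, 18.2 for *Scarb1* and 38.8 for *Nr1h3* to 53.1 for *Acat2*.

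**Figure D4:**
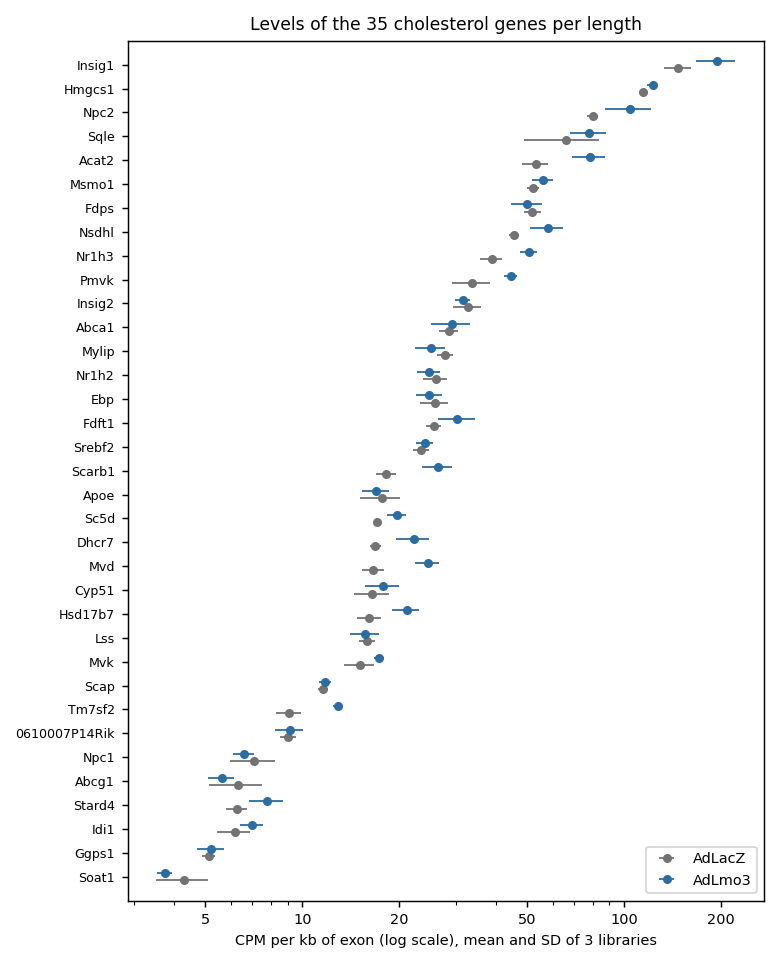
Mean CPM per kb of exon length (x axis, log scale) with the SD over 3 libraries for the 35 cholesterol genes in AdLacZ (grey) and Ad*Lmo3* (blue) libraries, ordered by the AdLacZ level. Levels run from 4.30 CPM per kb for *Soat1* to 147 CPM per kb for *Insig1* in AdLacZ libraries.

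Within the Ad*Lmo3* group the libraries were not alike in these genes. Replicate 3 had the highest level of the 3 in 25 of the 35 cholesterol genes (71.4%, against 36.3% of all tested genes) and replicate 1 the lowest in 18 (51.4%, against 34.5%). The summed adipocyte markers were 25708 CPM in replicate 1 and 30674 CPM in replicate 3, and the summed preadipocyte and fibroblast markers 24515 and 16566 CPM. Most of the latter sum came from 2 collagen genes, *Col3a1* (14422 and 9608 CPM) and *Col1a1* (6625 and 4259 CPM). The markers of that list did not all fall, and *Ly6a* had 44.7 CPM in replicate 1 and 245 CPM in replicate 3. Ad*Lmo3* replicate 3 also had the fewest counts on genes of all libraries (28035639) and the most reads on no gene (8.94%). In the AdLacZ group, replicate 1 was highest in 19 of the 35 genes (54.3%, against 34.3% of all tested genes). AdLacZ replicate 3 was highest in 4 (11.4%, against 29.9%). The summed adipocyte markers of AdLacZ replicates 1 to 3 lay close together, at 17978, 17508 and 18066 CPM. Relations between these values were not tested.

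Genes next to the pathway were read from the same fit, and 52 of 53 had enough counts to be tested. They comprised 4 induced genes (7.69%, against 2.71% of all tested genes) and 3 repressed genes, with a median log2 fold change of -0.03. Called in either direction were 13.5% of them, beside 14.3% of the 35 cholesterol genes and 4.28% of all tested genes. None of the 9 genes of SREBP processing and degradation was called, and *Srebf1*, which encodes the SREBP form that favours fatty acid synthesis, had a log2 fold change of 0.21 (adjusted p = 0.414). Other SREBP target genes held 3 induced and 1 repressed of 9. *Acss2*, which makes acetyl-CoA from acetate, had a log2 fold change of 0.66 (adjusted p = 0.0287) and *Lpin1*, a phosphatidate phosphatase, 0.61 (0.0240). The fatty acid desaturase gene *Fads2* had 0.42 (0.0405), while the elongase gene *Elovl6* had -0.58 (0.0275). With single libraries left out, *Acss2* and *Fads2* stayed called only without Ad*Lmo3* replicate 1, and *Elovl6* only without AdLacZ replicate 2. *Lpin1* lost its call without AdLacZ replicate 3 or Ad*Lmo3* replicate 2. The call of *Fads2* was also lost when libraries were scaled by totals only. *Mmab*, which shares a divergent promoter region with *Mvk*, had 0.30 (adjusted p = 0.0736).

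The 10 isoprenoid branch enzymes, which take farnesyl and geranylgeranyl diphosphate to prenylation, dolichol and ubiquinone, included 0 called genes and log2 fold changes between -0.19 (*Fntb*) and 0.07 (*Coq2*). Of 14 further transport and lipoprotein receptor genes, *Stard3*, an endosomal sterol-binding protein, was repressed, with a log2 fold change of -0.36 (adjusted p = 0.0491, a call lost when any of the 6 libraries was left out), and *Cd36*, the fatty acid and lipoprotein scavenger receptor, had 0.10 (adjusted p = 0.794). Of 10 tested genes around LXR, *Pltp*, a phospholipid transfer protein and known LXR target, was repressed. It had 253, 276 and 287 CPM with AdLacZ against 170.3, 183 and 141 CPM with Ad*Lmo3*, well apart, with a log2 fold change of -0.72 (-0.96 to -0.48, adjusted p = 0.0115), and *Ctsa* on the opposite strand covers 19.3% of its exon bases. *Hsd3b7*, an enzyme of bile acid synthesis that acts on oxysterols, had a log2 fold change of 0.59 (adjusted p = 0.0130) and was called induced, but 99.2% of its exon bases lie under other annotated genes (*9430064I24Rik* on the opposite strand and *Gm49388* on the same strand), so its reads are uncertain. *Rxra*, the partner of LXR, had 0.34 on the log2 scale (adjusted p = 0.0652). The count of 7 called neighbours fell to 0 without AdLacZ replicate 3, 1 (*Pltp*) without Ad*Lmo3* replicate 2, and 3 without AdLacZ replicate 1, AdLacZ replicate 2 or Ad*Lmo3* replicate 3.

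**Figure D5:**
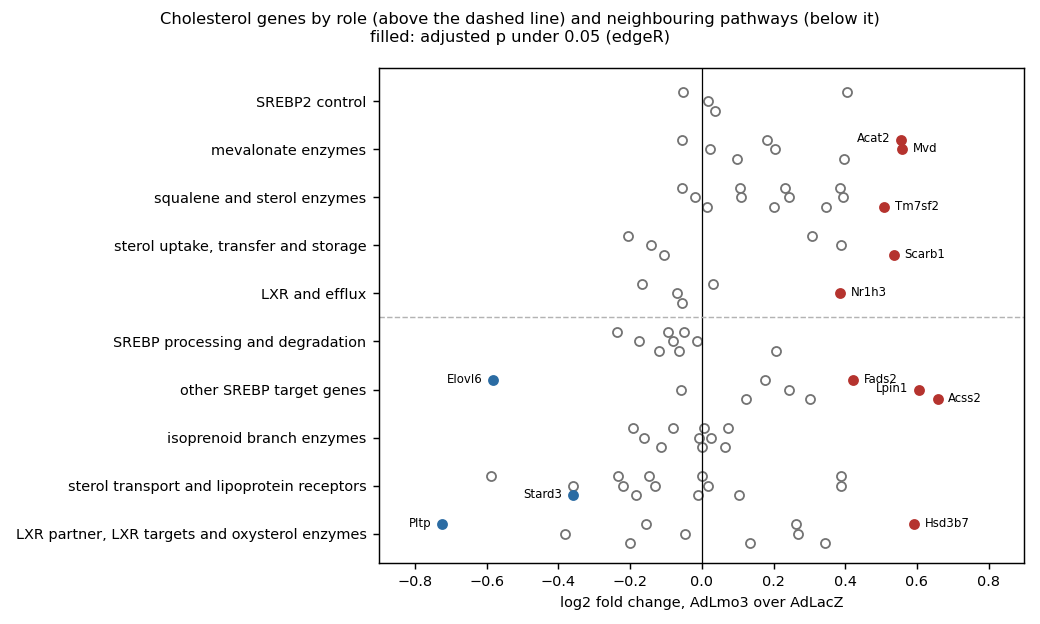
Log2 fold change of Ad*Lmo3* over AdLacZ (x axis) for the 35 cholesterol genes by role, above the dashed line, and for 52 genes of neighbouring pathways, below it; each point is 1 gene, and filled points have an adjusted p under 0.05 in edgeR (red higher, blue lower). The 5 called cholesterol genes all lie to the right of 0, whereas the called neighbours lie on both sides, from -0.72 (*Pltp*) to 0.66 (*Acss2*).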

How the data were processed

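RNA-Seq counts of 3 AdLacZ and 3 Ad*Lmo3* libraries were analysed. The authors sequenced single reads of 75 bp and deposited counts of reads per gene symbol, 1 table a library, without normalization. The submitters' processing notes name bcl2fastq, STAR 2.5.0b, DESeq2 1.6.3 and mm10; the counting program, strand setting and annotation are not given in the sources used here, so reads of genes overlapping on opposite strands may not be separable. Reads on no gene (7.15% to 8.94%) or several genes (0.476% to 0.543%) were left out. Groups and replicate numbers came from the labels.

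Counts were filtered (filterByExpr), TMM-normalized and tested with edgeR 4.0.16 in R 4.3.3 (quasi-likelihood, no block), with Benjamini-Hochberg adjustment over 12766 genes; the biological coefficient of variation was 0.119. The pipeline was tested on simulated data. 3 counts correspond to 0.0768 to 0.111 CPM, and such floors cover counting error only. No replicate pair was alike within sampling noise (chi-square per degree of freedom 24.1 to 64.0), and an exact permutation test of 3 against 3 cannot go below 0.1. Members and gene lists were chosen with earlier results of these data known: all 35 cholesterol genes are named, and of the neighbouring lists the called genes and up to 2 more a list. Positions and exon lengths (35 of 35 genes matched) came from GENCODE on GRCm38, the build of mm10. Alternatives were DESeq2 1.42.0, limma voom 3.58.1, edgeR's likelihood ratio test, other scalings and filters, the replicate block, and leaving out each library. Some genes of the pathway are not reported here.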

Additional observations from a re-analysis of the deposited data

How the results depend on the processing

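The number of cholesterol genes called, all of them higher in Ad*Lmo3*, was 5 in the main analysis, 11 with DESeq2, 8 with edgeR's likelihood ratio test, 8 without a count filter, and 0 to 8 when single libraries were left out. *Mvd*, *Tm7sf2* and *Scarb1* were called in 9 of 9 alternatives on all 6 libraries, and *Acat2* and *Nr1h3* in 8 of 9 each. With the likelihood ratio test or without a filter, *Pmvk*, *Hsd17b7* and *Dhcr7* joined the 5, and with DESeq2 also *Insig1*, *Nsdhl* and *Npc2*. With single libraries left out, *Mvd* was called in 5 of 6 fits, *Tm7sf2* in 4, *Acat2* and *Scarb1* in 2 and *Nr1h3* in 0. Lower calls stayed at 0 in every alternative run. All genes called numbered 1110 with DESeq2, 865 with the likelihood ratio test and 77 to 501 with single libraries left out, against 547. Called neighbours numbered 4 with the replicate block (*Lpin1*, *Elovl6*, *Pltp* and *Hsd3b7*, without *Acss2*, *Fads2* and *Stard3*) and 0 to 5 with single libraries left out, against 7. The median of the cholesterol genes was 0.036 with library totals only, which moved the median of all genes to -0.07.

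With library totals only, the log2 fold changes of *Srebf2* (-0.036), *Scap* (-0.055), *Ggps1* (-0.052), *0610007P14Rik* (-0.060) and *Abca1* (-0.043) turned negative. Over fits that leave out 1 library, values crossed 0 for genes near it: *Srebf2* -0.013 to 0.082, *Scap* -0.015 to 0.046, *Insig2* -0.13 to 0.012, *Fdps* -0.15 to 0.011, *Ggps1* -0.058 to 0.076, *Lss* -0.10 to 0.049, *0610007P14Rik* -0.063 to 0.076, *Ebp* -0.12 to 0.025, *Npc1* -0.21 to 0.027, *Nr1h2* -0.13 to 1.92e-05, *Abca1* -0.086 to 0.097 and *Apoe* -0.14 to 0.067. The cause was not tested.

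With the replicate number as a block, 4 cholesterol genes were called (adjusted p of *Acat2* 0.0538) and 498 genes in all. Deviations of same-numbered libraries correlated by 0.0345, 0.176 and 0.176 across genes, not over 0.1 in every pair. AdLacZ replicates 2 and 3 correlated best with the Ad*Lmo3* library of their own number, but AdLacZ replicate 1 with Ad*Lmo3* replicate 3 (0.111). The numbers were therefore not taken to pair the libraries.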
